A study of Mus musculus with 18 samples.

Results

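The genes described here are the Notch ligands Jag1 and Dll1, the receptors Notch1, Notch2 and Notch3, and the target genes Hes1, Hey1, Hey2 and Heyl, measured in primary mouse embryonic fibroblasts before and after TGF-β1. The members were chosen by gene symbol: every probe set whose only symbol in the annotation of the array is one of these 9 genes was taken, which gave 16 probe sets of 45101, and 9 genes of the 18194 that had a probe set of their own. Each gene is led by the probe set with the highest mean signal, and the other probe sets are given beside it. For 8 of the 9 genes that probe set exceeded the 40th percentile of signals on all 18 arrays, so none of these 8 was tested only because it was high in 1 group. Hey2 exceeded it on 2 arrays, both at 10 h of TGF-β1, and was not tested.

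The cells came from 14-day-old embryos without head and liver, 3 wild type and 3 labelled NFI-C knock-out, and were grown in DMEM with serum. They stood for some hours in DMEM with AlbuMAX II and an insulin, transferrin and selenium mix, a step that all groups share. Cells of each embryo were then left untreated or given TGF-β1 at 12.5 ng/ml for 1 h or 10 h, which made 6 groups of 3 Affymetrix arrays. Arrays of the same genotype and number in the labels are taken here as the same embryo, a reading whose limits are given with the changes per embryo. A culture left without TGF-β1 for the same 10 h is not used here, so time in the medium and TGF-β1 cannot be told apart at 10 h. The labels give neither the deleted part of the NFI-C gene nor the mouse strain.

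Notch signalling passes between touching cells. A ligand of the Jagged or Delta-like family on a cell binds a Notch receptor on its neighbour, proteases then cut the receptor, and the freed inner part enters the nucleus, where it binds the DNA-binding protein RBPJ and switches on target genes. The best known targets encode repressors of the Hes and Hey families, which bind DNA as basic helix-loop-helix proteins. In fibroblasts and other mesenchymal cells TGF-β, acting through SMAD proteins, is known to raise Jag1 and several Hes and Hey genes, and Hes1 is known as a gene that answers many stimuli within the hour.

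The promoter sequences bear on these genes because they show where letters that SMAD, RBPJ or NFI proteins are known to bind occur before the start of transcription. Of the 9 genes 6 matched an entry of the RefSeq promoters of build GRCm38.p6, with 7 windows of 250 bases, since Dll1 has 2 starts. Hes1, Hey1 and Heyl matched no entry, so their promoters were not searched. Shown are Jag1, the ligand that rose, Notch3, a receptor that fell in labelled knock-out cells, and Hey2, a target. Each is printed 5′ to 3′ on the strand of the gene, with capitals on matches, on either strand, to the RBPJ core TGGGAA, to the SMAD element with the letters CAGAC and to the NFI element with the letters TTGGC. The Jag1 window lies at chr2:137116521-137116770 on the minus strand, that of Notch3 at chr17:32166891-32167140 on the minus strand and that of Hey2 at chr10:30842784-30843033 on the minus strand.
Jag1: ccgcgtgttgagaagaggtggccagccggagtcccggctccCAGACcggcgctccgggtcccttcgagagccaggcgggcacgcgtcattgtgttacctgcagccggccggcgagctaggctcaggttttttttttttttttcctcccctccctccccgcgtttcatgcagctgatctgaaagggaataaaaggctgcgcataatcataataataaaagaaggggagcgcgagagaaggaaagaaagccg
Notch3: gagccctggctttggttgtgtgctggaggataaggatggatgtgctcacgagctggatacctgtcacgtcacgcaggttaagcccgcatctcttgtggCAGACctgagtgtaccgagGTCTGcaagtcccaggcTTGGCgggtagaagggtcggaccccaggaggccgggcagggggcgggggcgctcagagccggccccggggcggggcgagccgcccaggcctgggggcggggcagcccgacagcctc
Hey2: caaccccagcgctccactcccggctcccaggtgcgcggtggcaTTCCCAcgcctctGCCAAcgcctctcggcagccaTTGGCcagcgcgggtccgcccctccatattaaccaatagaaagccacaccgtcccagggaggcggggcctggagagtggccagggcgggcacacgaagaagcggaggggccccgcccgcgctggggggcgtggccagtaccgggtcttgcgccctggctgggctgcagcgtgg
The Jag1 window held 1 SMAD match, whose first base lies 209 bases before the start, and the Notch3 window held 2 SMAD matches and 1 NFI match. Hey2 was the only gene of the 6 with an RBPJ match, 207 bases before the start, and it had 2 NFI matches and no SMAD match. The windows of Notch1 and Notch2 held none of the 3. Over all 7 windows 4 held the SMAD letters, 3 the NFI letters and 1 the RBPJ letters, and of 32851 promoters of the same length 42.2%, 41.5% and 21.6% held them. Of the other motifs searched on both strands, the class C E-box CACGCG that Hes and Hey proteins are known to bind stood in 3 of 7 windows against 7.62% of all promoters, the N-box CACNAG in 3 of 7 against 36.7%, and the E-box CACGTG and the SMAD palindrome GTCTAGAC in 0 of 7 against 6.02% and 0.167%. A match is a description of the letters, not a measured binding site.

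The values are log2 signals as deposited, and 1 unit is a 2-fold difference. The lowest was 2.49 and the highest 14.47, and the 40th percentile of the arrays, the floor for testing, lay at 4.16 to 4.25. Arrays of the same group correlated at 0.987 to 0.995 over all probe sets. The number of arrays limits the precision: over all tested genes the median 95% interval of a difference between groups reached 0.27 to either side. The brightest of 5 Nfic probe sets, the only one read, did not separate the labels. It measured 10.51, 10.36 and 10.49 in untreated wild-type embryos 1, 2 and 3 and 10.43, 9.89 and 10.72 in untreated cells labelled knock-out (difference -0.10 ± 0.16 (SE, n = 3 per group), limma adjusted p = 1). A probe set outside a deleted part would not show a deletion, and the genotype is therefore given throughout as the label states it.

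Jag1, the Notch ligand that is best known as a target of TGF-β, rose by more than 2-fold at 10 h in both genotypes. In wild-type embryos 1, 2 and 3 its log2 level was 9.21, 8.89 and 9.16 untreated, 9.36, 9.48 and 9.25 at 1 h and 10.43, 10.56 and 10.04 at 10 h. In labelled knock-out embryos 1, 2 and 3 it was 8.71, 8.73 and 9.16 untreated, 8.97, 8.99 and 9.52 at 1 h and 10.52, 9.58 and 10.34 at 10 h. Every 10 h array lay above every untreated and 1 h array of both genotypes, with labelled knock-out embryo 2 the lowest of the 6. The change from untreated to 10 h was 1.26 ± 0.22 (SE, n = 3 per group) in wild-type cells, 2.39-fold (limma, adjusted p = 4.2e-04), and 1.28 ± 0.22 in labelled knock-out cells, 2.43-fold (limma, adjusted p = 3.2e-04). At 1 h the differences were 0.28 and 0.29 and did not pass, although the 3 wild-type 1 h arrays lay above the 3 untreated ones. The 2 dimmer Jag1 probe sets moved the same way at 10 h, by 2.24 ± 0.28 and 1.19 ± 0.20 in wild-type cells and 2.15 ± 0.28 and 1.06 ± 0.20 in labelled knock-out cells (limma over 29020 probe sets, of which 25.1% and 25.5% were called; highest adjusted p = 0.00105). So all 3 probe sets passed in both genotypes, while the size of the change differed between them.

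Dll1, a Delta-like ligand, stayed close to the floor of the arrays and did not pass in any comparison. Its wild-type levels were 4.53, 4.43 and 4.64 untreated, 4.54, 5.17 and 4.91 at 1 h and 4.51, 4.84 and 4.75 at 10 h in embryos 1, 2 and 3. In labelled knock-out cells they were 4.58, 4.91 and 4.78 untreated, 5.09, 4.96 and 4.82 at 1 h and 4.52, 4.79 and 4.40 at 10 h. The groups overlapped in each pair of neighbours when ordered by mean. The largest difference among its TGF-β1 comparisons was 10 h against 1 h in labelled knock-out cells, -0.39 ± 0.15 (SE, n = 3 per group; limma adjusted p = 0.0611), which passed with embryo as a replicate block (adjusted p = 0.0318) and without wild-type embryo 1 (0.0347) or 2 (0.0426).

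Notch1, a receptor, rose at 10 h in both genotypes by less than 2-fold. Wild-type embryos 1, 2 and 3 had 7.48, 7.49 and 7.32 untreated, 7.56, 7.28 and 7.42 at 1 h and 8.0, 8.66 and 8.01 at 10 h. Labelled knock-out embryos had 7.32, 6.79 and 7.36 untreated, 7.36, 6.65 and 7.32 at 1 h and 8.35, 7.44 and 8.32 at 10 h. Embryo 2 of the labelled knock-out group was the lowest of all 6 in each condition, and within each genotype every 10 h array lay above every untreated one. The 10 h change was 0.79 ± 0.25 (SE, n = 3 per group) in wild-type (limma, adjusted p = 0.0232) and 0.88 ± 0.25 in labelled knock-out cells (adjusted p = 0.0125). These calls were lost without wild-type embryo 1 (0.0573), 2 (0.1698) or 3 (0.0846) and without labelled knock-out embryo 1 (0.0780) or 3 (0.0714). The dimmer probe set changed by 0.51 ± 0.14 in wild-type cells, which passed (limma over all probe sets, adjusted p = 0.0129), and by 0.26 ± 0.14 in labelled knock-out cells, which did not (0.1951).

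Notch2, another receptor, fell at 10 h. Its levels in wild-type embryos 1, 2 and 3 were 9.98, 9.52 and 9.96 untreated, 9.95, 9.91 and 9.76 at 1 h and 9.61, 9.35 and 9.09 at 10 h. In labelled knock-out embryos they were 9.73, 9.85 and 10.00 untreated, 9.86, 9.79 and 10.06 at 1 h and 9.44, 9.21 and 9.35 at 10 h. The labelled knock-out groups did not overlap, whereas wild-type embryo 1 at 10 h lay above untreated embryo 2. The change was -0.47 ± 0.14 (SE, n = 3 per group) in wild-type (limma, adjusted p = 0.0187) and -0.53 ± 0.14 in labelled knock-out cells (adjusted p = 0.0090). The wild-type call was lost without embryo 3 (-0.27, adjusted p = 0.2506), with only the 2 groups compared in the fit (0.0970) and with arrays centred on their median (-0.33, 0.0862), and the other call without labelled knock-out embryo 2 (0.0771) or 3 (0.0820). The other Notch2 probe set, near the floor at a mean of 4.31, had differences of the opposite sign, 0.21 ± 0.12 and 0.08 ± 0.12, that did not pass (limma over all probe sets, adjusted p = 0.2042 and 0.6851).

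Notch3, a receptor known from vascular smooth muscle and pericytes, was lower at 10 h on each array than on the untreated arrays of the same genotype. Its wild-type levels were 7.36, 6.78 and 7.22 untreated, 7.46, 7.14 and 7.47 at 1 h and 6.60, 6.75 and 6.71 at 10 h in embryos 1, 2 and 3. The labelled knock-out levels were 7.55, 7.10 and 7.99 untreated, 7.74, 7.13 and 7.87 at 1 h and 6.81, 6.58 and 6.95 at 10 h. Embryo 2 was the lowest untreated and 1 h array of either genotype. The fall passed in labelled knock-out cells, -0.77 ± 0.22 (SE, n = 3 per group; limma adjusted p = 0.0130), but not without embryo 1 (0.0740) or 3 (0.0681). In wild-type cells the difference of -0.44 ± 0.22 did not pass (adjusted p = 0.1389), but did with embryo as a replicate block (0.0187) and without labelled knock-out embryo 2 (0.0486). The 2 falls were not shown to differ (difference -0.33, limma adjusted p = 0.9987). The dimmer Notch3 probe set had -0.28 ± 0.26 and -0.68 ± 0.26, neither of which passed (limma over all probe sets, adjusted p = 0.4792 and 0.0744).

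**Figure D1:**
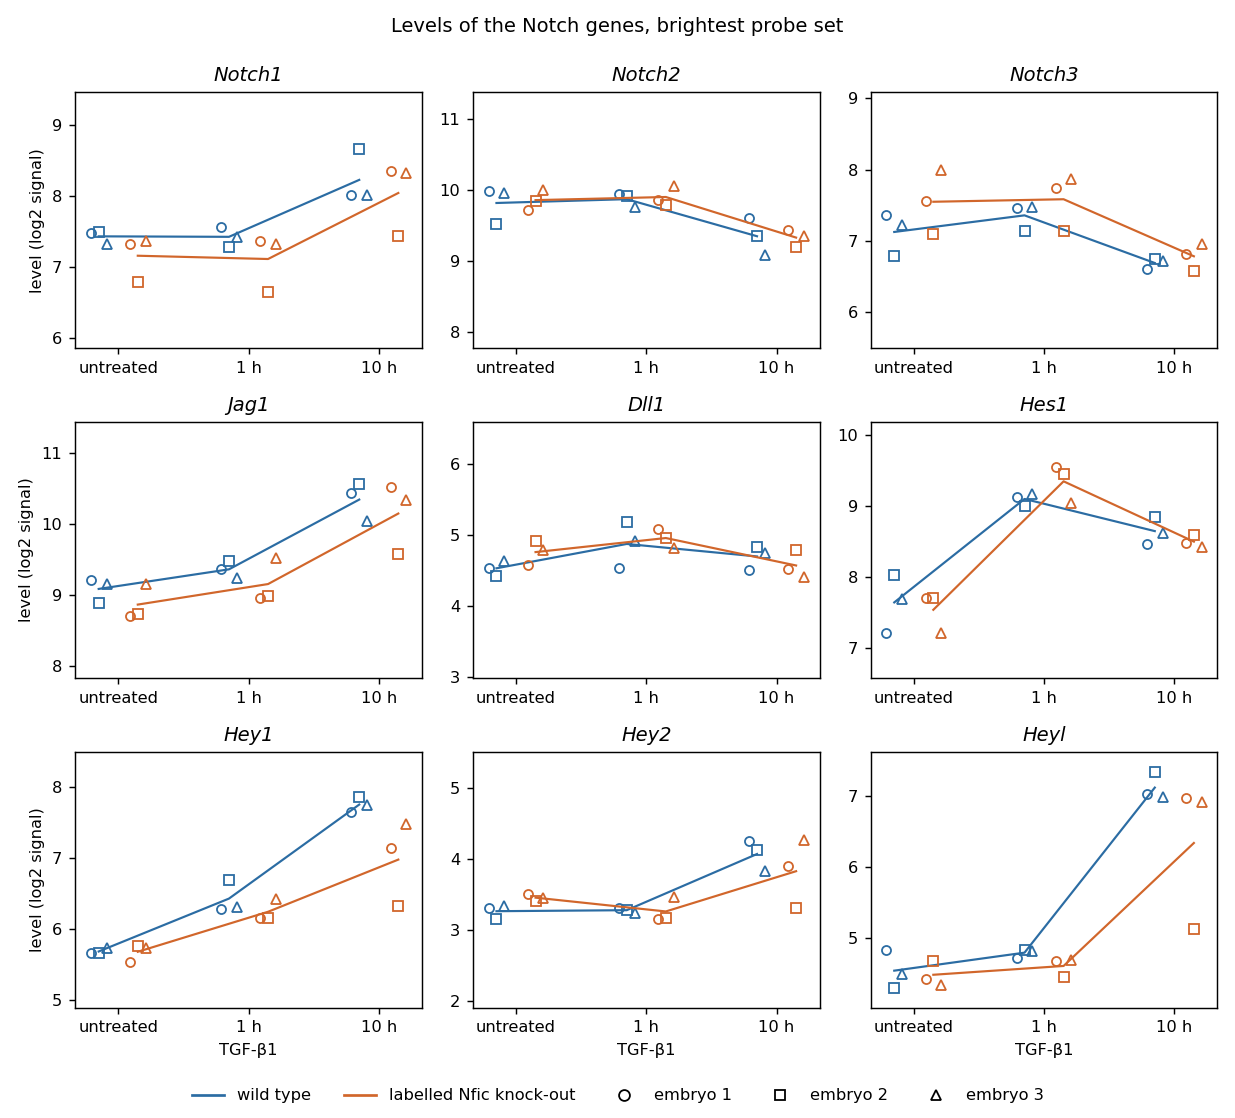
Log2 level of the brightest probe set of each of the 9 genes in the 6 groups. Points are embryos, and each line joins the group means of 3 embryos across the conditions of a genotype. Panels share the length of their y axis but not its position, so levels are not to be compared between genes. Hes1 is highest at 1 h, Jag1, Hey1 and Heyl are highest at 10 h, and Notch2 and Notch3 are lowest at 10 h.

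Hes1, a repressor and the classical Notch target, was the only one of the 8 tested genes called at 1 h, in both genotypes. Of all 13679 tested genes 0.504% were called higher at 1 h in wild-type cells and 0.417% in labelled knock-out cells. Hes1 levels in wild-type embryos 1, 2 and 3 were 7.21, 8.03 and 7.69 untreated, 9.13, 8.99 and 9.17 at 1 h and 8.47, 8.85 and 8.62 at 10 h. In labelled knock-out embryos they were 7.70, 7.70 and 7.21 untreated, 9.55, 9.45 and 9.04 at 1 h and 8.47, 8.59 and 8.43 at 10 h. In each genotype the 3 conditions did not overlap, with 1 h highest and 10 h between. The 1 h change was 1.45 ± 0.19 (SE, n = 3 per group) in wild-type, 2.74-fold (limma, adjusted p = 6.4e-04), and 1.81 ± 0.19 in labelled knock-out cells, 3.50-fold (adjusted p = 6.5e-05). At 10 h it still stood 1.00 ± 0.19 above untreated in wild-type (adjusted p = 7.3e-04) and 0.96 ± 0.19 in labelled knock-out cells (adjusted p = 9.6e-04).

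From 1 h to 10 h Hes1 fell by 0.85 ± 0.19 in labelled knock-out cells (limma, n = 3 per group, adjusted p = 0.0026). In wild-type cells the difference was -0.45 ± 0.19 (adjusted p = 0.0777), which passed with embryo as a replicate block (0.0255), with only the 2 groups compared in the fit (0.0320) and without wild-type embryo 2 (0.0487). The size of the 1 h change differed among wild-type embryos, at 1.92, 0.97 and 1.48 in embryos 1, 2 and 3, and less among labelled knock-out embryos, at 1.85, 1.74 and 1.82. Wild-type embryo 2 had the smallest change and the highest untreated level. The genotypes were not shown to differ in the 1 h change (difference 0.35 ± 0.27, 95% interval -0.21 to 0.92; limma adjusted p = 1).

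Hey1, a repressor of the Hey family, had its highest mean at 10 h in both genotypes, over 4-fold above untreated in wild-type cells. In wild-type embryos 1, 2 and 3 its levels were 5.66, 5.66 and 5.74 untreated, 6.28, 6.69 and 6.31 at 1 h and 7.65, 7.85 and 7.75 at 10 h. In labelled knock-out embryos they were 5.54, 5.77 and 5.74 untreated, 6.15, 6.15 and 6.43 at 1 h and 7.14, 6.32 and 7.47 at 10 h. The wild-type conditions formed 3 separate steps, while the 10 h array of labelled knock-out embryo 2 fell within the range of the 1 h arrays. The 10 h change was 2.07 ± 0.21 (SE, n = 3 per group) in wild-type, 4.18-fold (limma, adjusted p = 2.3e-06), and 1.30 ± 0.21 in labelled knock-out cells, 2.46-fold (adjusted p = 1.6e-04). At 1 h every array lay above every untreated array of its genotype, as did 7.68% of tested genes in wild-type cells and 3.87% in labelled knock-out cells. The 1 h differences of 0.74 ± 0.21 and 0.56 ± 0.21 did not pass (limma, adjusted p = 0.2195 and 0.8117), though the wild-type one did without labelled knock-out embryo 2 (0.0214). From 1 h to 10 h Hey1 rose by a further 1.32 in wild-type (adjusted p = 1.6e-04) and 0.73 in labelled knock-out cells (adjusted p = 0.0121); the second call was lost without embryo 1 (0.1298) or 3 (0.0724) and with only those 2 groups in the fit (0.0827).

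Heyl, another member of the Hey family that is known from smooth muscle and pericytes, had the largest 10 h change of the 8 tested genes in both genotypes by brightest probe set. Its wild-type levels were 4.83, 4.30 and 4.49 untreated, 4.72, 4.83 and 4.82 at 1 h and 7.02, 7.34 and 6.98 at 10 h in embryos 1, 2 and 3. The labelled knock-out levels were 4.43, 4.68 and 4.34 untreated, 4.68, 4.45 and 4.69 at 1 h and 6.97, 5.13 and 6.91 at 10 h. Untreated and 1 h arrays lay near the floor, and 5 of the 6 arrays at 10 h lay between 6.91 and 7.34, with labelled knock-out embryo 2 at 5.13. The change was 2.57 ± 0.33 (SE, n = 3 per group) in wild-type, 5.95-fold (limma, adjusted p = 2.7e-05), and 1.85 ± 0.33 in labelled knock-out cells, 3.61-fold (adjusted p = 4.5e-04). Without embryo 2 the labelled knock-out change was 2.55. The 2 other Heyl probe sets passed as well, with 2.31 ± 0.25 and 1.36 ± 0.22 in wild-type cells and 1.93 ± 0.25 and 1.14 ± 0.22 in labelled knock-out cells (limma over all probe sets, highest adjusted p = 0.00118). A dimmer Jag1 probe set rose by more than each Heyl probe set in labelled knock-out cells, from a mean of 4.95 untreated to 7.10 at 10 h.

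Hey2, the Hey gene best known from heart and arteries, lay below the 40th percentile on 16 of the 18 arrays. It measured 3.31, 3.15 and 3.33 untreated, 3.31, 3.29 and 3.24 at 1 h and 4.25, 4.13 and 3.83 at 10 h in wild-type embryos 1, 2 and 3. In labelled knock-out embryos it measured 3.51, 3.41 and 3.45 untreated, 3.16, 3.17 and 3.46 at 1 h and 3.91, 3.31 and 4.27 at 10 h. The wild-type 10 h arrays lay above the other wild-type arrays, and labelled knock-out embryo 2 was again the lowest of the 6 at 10 h. In a fit of all 18194 genes with no filter, in which 25.2% and 25.6% of genes were called at 10 h, the change was 0.80 ± 0.17 (SE, n = 3 per group; limma adjusted p = 0.0026) in wild-type cells and 0.37 ± 0.17 (adjusted p = 0.1407) in labelled knock-out cells. At this level a fold change is not well measured.

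Counted together at 10 h, 5 of the 8 tested genes were called higher in each genotype (Jag1, Notch1, Hes1, Hey1 and Heyl), where 14.9% of all tested genes were called higher in wild-type cells and 13.9% in labelled knock-out cells. Notch2 was called lower in wild-type cells and Notch2 and Notch3 in labelled knock-out cells, where 18.8% and 20.7% of all tested genes were. The median 10 h difference of the 8 genes was 0.90 in wild-type cells and 0.92 in labelled knock-out cells, and that of all tested genes 0.01 and -0.03. From 1 h to 10 h 4 of the 8 were called higher in each genotype, 2 were called lower in wild-type cells and 3 in labelled knock-out cells, where 33.3% and 33.4% of all tested genes were called. The counts of called members changed when single embryos were left out, which also leaves fewer arrays. Called members at 10 h went from 7 to 4 of 8 without labelled knock-out embryo 3. Calls over all genes in that comparison went from 4745 to 3279. The Notch1, Notch2 and Notch3 changes were then 0.84, -0.46 and -0.63, against 0.88, -0.53 and -0.77 with that embryo. From 1 h to 10 h called members went from 6 to 3 without wild-type embryo 3. In labelled knock-out cells they went from 7 to 3 or 4 without embryo 1 or 3. In either direction 0.585% and 0.490% of tested genes were called at 1 h in the 2 genotypes, and 33.7% and 34.7% at 10 h, so a call of a single gene at 10 h is shared by many genes outside this pathway. Arrays at 10 h lay wholly above the untreated ones for the same 5 genes in each genotype, as for 21.0% of all tested genes in wild-type cells and 19.4% in labelled knock-out cells. They lay wholly below for Notch3 in wild-type cells (all genes 23.3%) and for Notch2 and Notch3 in labelled knock-out cells (25.7%). When each array was centred on its median over the tested genes, 10 h differences moved up by 0.14 in both genotypes, no sign of the 8 genes turned, and the share of higher genes among all calls went from 44.2% to 68.8% in wild-type and from 40.2% to 62.2% in labelled knock-out cells. From 1 h to 10 h the same centring moved that share from 45.9% to 63.0% and from 41.1% to 64.1%.

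**Figure D2:**
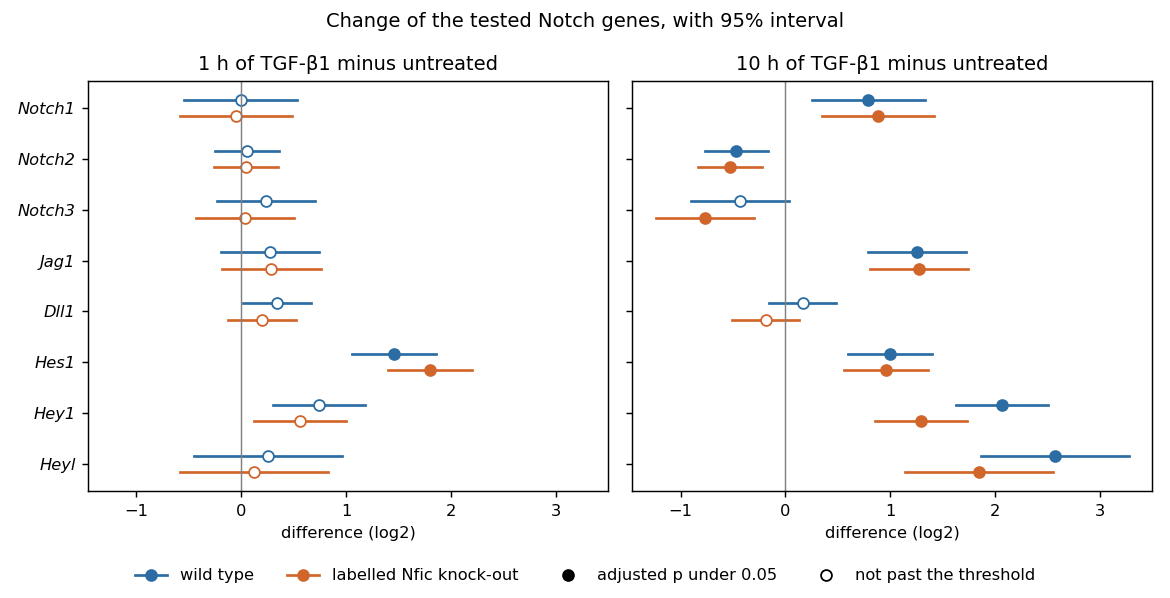
Change of the 8 tested genes on the log2 scale after TGF-β1, at 1 h and at 10 h, relative to untreated cells of the same genotype, with 95% intervals of the fit (n = 3 per group). Filled points passed at an adjusted p of 0.05. Of the brightest probe sets shown, Hes1 alone is filled at 1 h, and Heyl has the largest change at 10 h.

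The order of the 6 groups by mean shows which levels were separate. For Hes1 both untreated groups were lowest, both 10 h groups followed and both 1 h groups were highest, and neighbours did not overlap at these 2 steps. For Hey1 both untreated groups were lowest and wild-type cells at 10 h highest, with the 2 groups at 1 h and labelled knock-out cells at 10 h overlapping in between. For Jag1 both 10 h groups stood apart from the other 4, whose neighbours overlapped. For the brightest Heyl probe set, labelled knock-out cells at 10 h and wild-type cells at 10 h each stood above all groups before them in the order. At the 2 other Heyl probe sets the genotypes overlapped at 10 h. For Notch1, Notch2, Notch3 and Dll1 each group overlapped its neighbours in the order.

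Between the genotypes no gene of the 8 was called in any condition, in either response or in embryo means, and 0 of 13679 genes (0%) were (limma; at an unadjusted p under 0.05, 460 genes untreated, 846 at 1 h and 721 at 10 h). Within a condition, the differences of the 8 with the smallest unadjusted p were those of Hey1 and Heyl at 10 h. Hey1 was -0.77 ± 0.21 in labelled knock-out against wild-type cells (SE, n = 3 per group; limma adjusted p = 0.6406; 95% interval -1.21 to -0.34). Heyl was -0.78 ± 0.33 (limma adjusted p = 0.9233; 95% interval -1.48 to -0.07). At the brightest probe set of both genes every labelled knock-out array lay below every wild-type array at 10 h, as did 4.96% of all tested genes. At the 2 other Heyl probe sets the genotypes overlapped at 10 h. Their means were 6.78 and 5.63 in wild-type cells and 6.44 and 5.49 in labelled knock-out cells. Without labelled knock-out embryo 2 the differences were -0.44 for Hey1 (adjusted p = 0.8155) and -0.18 for Heyl (adjusted p = 0.9972). The difference between the 10 h changes of the genotypes was -0.77 ± 0.29 for Hey1 and -0.72 ± 0.47 for Heyl (adjusted p = 0.9987 for both), and -0.40 and -0.02 without that embryo.

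Labelled knock-out embryo 2 stood apart in its 10 h change of Heyl and Hey1. Heyl changed by 2.19, 3.04 and 2.49 in wild-type embryos 1, 2 and 3 and by 2.54, 0.45 and 2.57 in labelled knock-out embryos. Hey1 changed by 1.99, 2.19 and 2.01 and by 1.60, 0.55 and 1.74, and Jag1 by 1.22, 1.67 and 0.88 and by 1.81, 0.85 and 1.18. Notch1 changed by 0.53, 1.17 and 0.69 and by 1.03, 0.65 and 0.96. The change of Hes1 was not smallest in that embryo, at 1.26, 0.82 and 0.93 and at 0.77, 0.89 and 1.21.

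Over many genes the 10 h change of labelled knock-out embryo 2 was close to that of the other embryos among rising genes and the smallest of its genotype among falling ones. Over the 2041 genes called higher in wild-type cells its median was 0.489, 0.487 and 0.512 in labelled knock-out embryos 1, 2 and 3. Over the 1908 genes called higher in labelled knock-out cells it was 0.518, 0.529 and 0.566 in wild-type embryos. Over the 2573 genes called lower in wild-type cells the median was -0.72, -0.56 and -0.64 in labelled knock-out embryos 1, 2 and 3, and over the 2837 called lower in labelled knock-out cells it was -0.56, -0.52 and -0.55 in wild-type embryos. The signal of the 3′ minus the 5′ actin control probes, a measure of intact RNA, was 0.07, 0.16 and 0.14 on the labelled knock-out 10 h arrays of embryos 1, 2 and 3 and 0.07 to 0.54 over all 18 arrays. That embryo had the lowest mean of 8 macrophage markers at 10 h, 8.40 where the other 5 had 8.69 to 10.64. It was also the lowest untreated (8.59) and at 1 h (8.57). Its mean of 8 pericyte and smooth muscle markers, 7.88, lay within the range of 7.61 to 8.07 at 10 h. The part of these markers in the result was not tested. The changes per embryo rest on the replicate numbers of the labels: over all genes the untreated and 10 h arrays of the same number shared deviations in the labelled knock-out embryos (r = 0.388, 0.344 and 0.282 across genes, which are not independent) and in wild-type embryo 1 (0.488), but not in wild-type embryos 2 and 3 (-0.06 and -0.20).

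**Figure D3:**
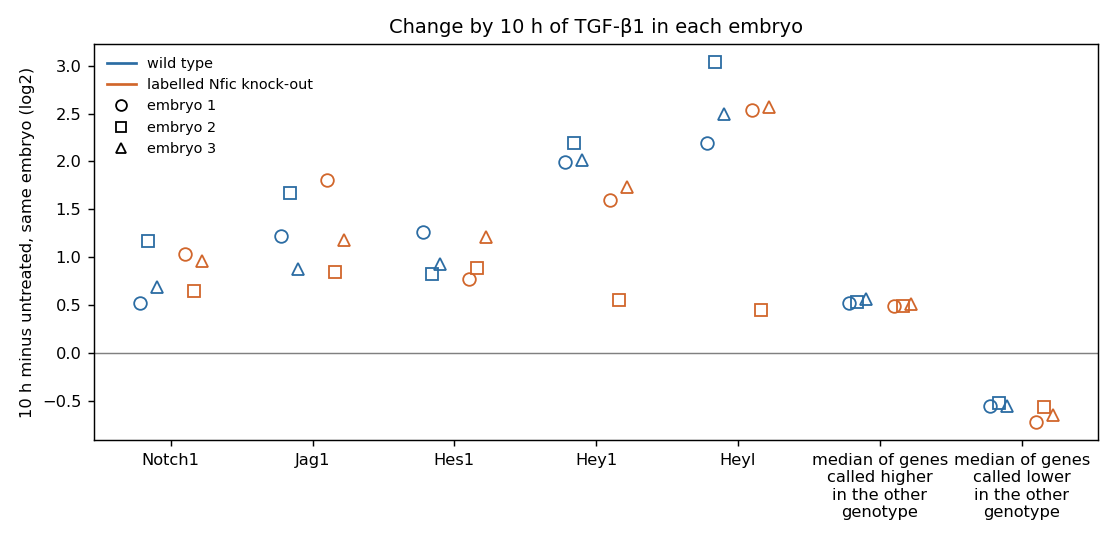
Change from untreated to 10 h on the log2 scale in each of the 6 embryos for Notch1, Jag1, Hes1, Hey1 and Heyl, beside the medians over genes called higher and over genes called lower in the other genotype. Labelled knock-out embryo 2 is lowest of the 6 for Heyl (0.45), Hey1 (0.55) and Jag1 (0.85), and its medians over many genes are 0.487 (0.489 and 0.512 in embryos 1 and 3) for higher and -0.56 (-0.72 and -0.64) for lower genes.

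The rest of the pathway was read from a list of 56 genes, of which 52 had a probe set and 48 were tested. None of the 48 was called at 1 h (limma; 2 in wild-type cells and 1 in labelled knock-out cells at an unadjusted p under 0.05). At 10 h 6 were called higher and 11 lower in wild-type cells, together 35.4% where all genes gave 33.7%, and 5 higher and 13 lower in labelled knock-out cells, 37.5% against 34.7%. Their median difference was -0.07 and -0.14. With centred arrays the wild-type counts turned to 11 higher and 8 lower and the others to 7 higher and 8 lower, so the balance of directions in this list rests on the scaling. The share called was near that of all genes. The classes below hold 5 to 8 tested genes each, and their counts are to be read against the shares of all tested genes called at 10 h, 18.8% lower and 14.9% higher in wild-type cells, 20.7% lower and 13.9% higher in labelled knock-out cells.

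Among the proteases that cut the receptor, 4 of 8 fell and 1 rose in each genotype (3 and 1 with centred arrays). Aph1b, a subunit of the γ-secretase that makes the last cut, fell by 0.85 ± 0.15 in wild-type (limma, n = 3 per group, adjusted p = 3.8e-04) and by 0.93 ± 0.15 in labelled knock-out cells (1.5e-04). Furin, which cuts the receptor on its way to the surface, rose by 0.71 ± 0.16 (0.0028) and 0.70 ± 0.16 (0.0029). The other 3 that fell in each genotype, named after their values were seen, were Adam10, a protease that cuts the bound receptor, by 0.46 and 0.51, and the γ-secretase subunits Psenen, by 0.53 and 0.41, and Psen2, by 0.34 and 0.43; with centred arrays Psen2 did not pass in wild-type cells (0.1551) nor Psenen in labelled knock-out cells (0.1373). Of 5 tested genes for sugar transfer to Notch, 2 fell in wild-type cells and 3 in labelled knock-out cells; with centred arrays 1 fell and 1, the Fringe gene Mfng, rose in wild-type cells (0.55, limma adjusted p = 0.0120), and 0 were called in labelled knock-out cells. Poglut1, which adds glucose to the receptor, changed by -0.49 ± 0.09 (8.7e-04) and -0.33 ± 0.09 (0.0114), and with centred arrays the second did not pass (0.1132). The others that fell, named after their values were seen, were Pofut1, which adds fucose, by 0.48 and 0.41 in both genotypes, and another Fringe gene, Rfng, by 0.34 in labelled knock-out cells, and neither passed with centred arrays. Lfng, a Fringe enzyme that alters ligand choice, did not pass, with 0.37 and 0.76 at 1 h (0.8031 and 0.2063) and 0.03 and 0.34 at 10 h (0.9196 and 0.2089).

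In the nuclear complex 1 of 5 tested genes fell in each genotype, a share like that of all genes. It was the acetyltransferase Kat2b, which fell by 0.75 ± 0.10 in wild-type (limma, n = 3 per group, adjusted p = 2.5e-05) and by 0.93 ± 0.10 in labelled knock-out cells (2.8e-06). Rbpj, the DNA-binding partner of the receptor, averaged 9.35 untreated and 9.04 at 10 h in wild-type cells and 9.28 and 9.09 in labelled knock-out cells, differences of -0.31 and -0.19 that did not pass (adjusted p = 0.0722 and 0.2828). Of 8 tested corepressors 3 fell and 1 rose in each genotype; with centred arrays 2 fell in wild-type cells. The Groucho family genes Tle2, by 1.02 ± 0.16 (1.6e-04) and 1.25 ± 0.16 (2.1e-05), and Tle4, by 0.73 ± 0.13 (5.0e-04) and 0.66 ± 0.13 (0.0010), fell in both. Tle3 fell by 0.62 ± 0.11 in labelled knock-out cells (5.2e-04) and by 0.37 ± 0.11 in wild-type cells (0.0179), the latter not with centred arrays (-0.23, 0.1129). The gene that rose, named after its values were seen, was their relative Tle1, by 0.58 and 0.49.

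Of 8 tested genes for turnover of the receptor, 3 rose in each genotype, and 1 fell in labelled knock-out cells. With centred arrays, where 28.2% of all genes were called higher in wild-type cells and 22.8% in labelled knock-out cells, 4 and 3 rose, Numbl being added (0.43, limma adjusted p = 0.0092), and 0 fell. Itch, a ubiquitin ligase, rose by 0.40 ± 0.09 in wild-type (limma, n = 3 per group, adjusted p = 0.0032) and by 0.46 ± 0.09 in labelled knock-out cells (9.7e-04). The other 2 that rose, named after their values were seen, were Numb, an adaptor that lowers Notch at the surface, by 0.37 and 0.44, and Fbxw7, which marks the freed receptor for decay, by 0.53 and 0.56. The gene that fell was Dtx3, of the Deltex family, by 0.50 (0.0227), and not with centred arrays (0.0969). Among other targets, Nrarp, a feedback inhibitor that Notch switches on, rose in wild-type cells by 0.80 ± 0.19 (0.0043) and had 0.37 ± 0.19 in labelled knock-out cells (0.1514); the difference between these changes, -0.43 ± 0.27, did not pass (0.9987). Hes6, a Hes relative known to oppose Hes1, fell by 0.52 ± 0.13 (0.0045) and 0.75 ± 0.13 (2.6e-04). Hes5 had -0.01 and 0.00. Of the remaining ligands Jag2 had 0.18 and 0.24 (0.1649 and 0.0696), both of which passed with centred arrays (0.0329 and 0.0164). Dll4 had 0.18 and 0.11, which did not pass, and with centred arrays it passed in wild-type cells (0.33, adjusted p = 0.0231). Notch4, the receptor of endothelial cells, lay between 3.85 and 4.16, above the 40th percentile on 0 arrays, and was not tested.

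**Figure D4:**
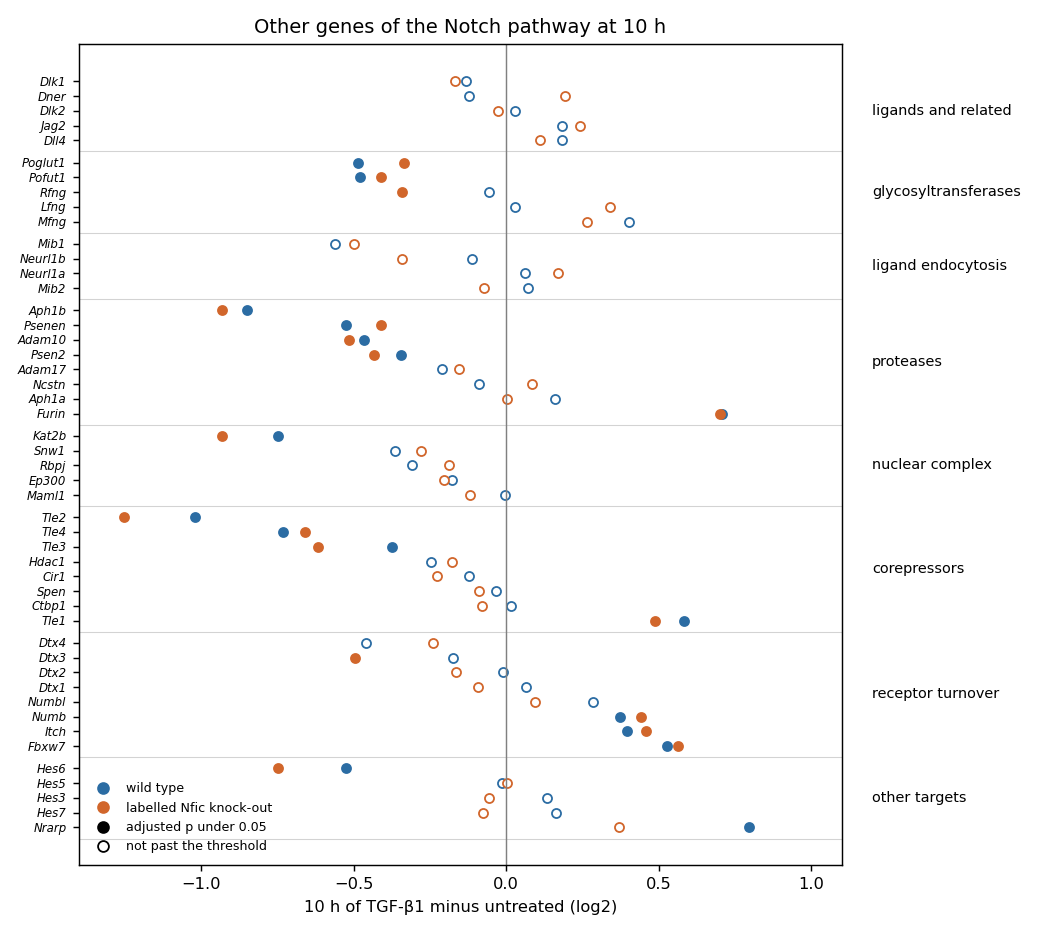
Change at 10 h of TGF-β1 relative to untreated cells, log2 scale, for the tested genes of the wider pathway list, by class, in wild-type and labelled knock-out cells. Filled points passed at an adjusted p of 0.05. Tle2, Aph1b and Kat2b lie lowest in both genotypes, and the balance of higher and lower genes in the list changes when arrays are centred on their median.

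The genes whose 6 group means lay closest in shape to those of a member were ranked by the root-mean-square difference of means centred on each gene, over 18 arrays, for the 5 members that span at least 1 unit. For Heyl they were Megf10 (0.04), Abcb1a (0.10) and Pkp1 (0.19), where the median over all tested genes was 1.03. For Jag1 they were Zfp469 (0.03), Yrdc (0.05) and Zfpm1 (0.07), against a median of 0.56, and for Notch1 Lbh (0.05), Cyb5r1 (0.06) and Wdfy1 (0.06), against 0.43. For Hes1 they were Gadd45g (0.14), Smad7, the inhibitory SMAD (0.14), and Fgf18 (0.16), against 0.70. For Hey1 they were Fhdc1 (0.20), Cxcr6 (0.20) and Morrbid (0.21), against 0.73. Hey1 thus had no gene as close as Heyl, Jag1 and Notch1 had. These are descriptions of 6 means in a design where many genes follow the same few patterns. The labelled knock-out 10 h mean of Heyl, 6.33, holds embryo 2 at 5.13 beside embryos 1 and 3 at 6.97 and 6.91. That of Hey1, 6.98, holds embryo 2 at 6.32 beside 7.14 and 7.47. The rankings for Heyl and Hey1 therefore depend in part on that embryo.

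Markers of the cell types that such cultures can hold were read beside these results. All 12 fibroblast markers passed the filter, with a mean of 11.2 to 11.7 on untreated arrays and 10.7 to 11.0 at 10 h. Of 10 endothelial markers 6 passed. Egfl7 (mean 6.63), Kdr (5.41) and Esam (4.53) lay above the 40th percentile on all 18 arrays, Emcn on 12, Sox17 on 11 and Sox18 on 3. Pecam1, Tek and Tie1 lay above it on 0 arrays and Cdh5 on 2. Of 7 myogenic markers 3 passed (Cdh15, Chrna1 and Pax3, at means of 4.48 to 4.66), while Myod1, Myf5 and Pax7 lay above it on 0 arrays. The mean of 8 markers of pericytes and smooth muscle, cells that express Notch3 and Heyl in tissue, lay between 6.91 and 6.97 untreated and between 7.61 and 7.98 at 10 h in wild-type embryos. In labelled knock-out embryos it lay between 6.98 and 7.31 untreated and between 7.74 and 8.07 at 10 h, and 4 of the 8 were called higher at 10 h in each genotype (limma; all genes 14.9% and 13.9%) and 1, Kcnj8, lower in labelled knock-out cells, with means of 4.79 untreated and 4.21 at 10 h. In bulk cultures more cells of a type and more RNA per cell cannot be told apart. All 8 macrophage markers passed as well, with means of 8.40 to 10.85 that were highest in wild-type embryo 1 in each condition. Their part in the changes of the Notch genes was not tested.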

How the data were processed

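The 18 arrays measured RNA of 6 embryos in 3 conditions. The deposited values are log2 signals per probe set, made by the authors with RMA per the submitters' processing notes, which give no version. RMA normalizes arrays to each other, so a shift shared by most genes would be removed. The scale was read from the values.

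Of 45101 probe sets 34958 carried 1 gene symbol, 932 several and 9211 none in the annotation table; 34754 matched a RefSeq table (GRCm38.p6) used for names. Each gene was its brightest probe set, tested where above the 40th percentile on at least 3 arrays (13679 genes tested, 4515 not). Group means were fitted over all 18 arrays (12 residual degrees of freedom) with limma 3.58.1 in R 4.3.3, with empirical Bayes moderation and two-sided p-values adjusted by Benjamini-Hochberg over tested genes, threshold 0.05. Embryo pairs the conditions within a genotype, per the labels, and entered a replicate block as an alternative. For the genotypes compared within a condition the block was the replicate number instead. The same number in the 2 genotypes marks different embryos. Their deviations correlated at 0.346, 0.541 and 0.073 untreated and at 0.472, 0.487 and 0.104 at 1 h for numbers 1, 2 and 3. At 10 h the values were 0.135, -0.198 and -0.024. The test was tried on simulated data with known changes. Motifs were searched and figures drawn in Python 3.11.15 with matplotlib 3.10.9. The members and lists were chosen with earlier results of these data known. Of the wider list, up to 6 genes per comparison with the smallest adjusted p and a set of core components are named; other names are marked as chosen after their values were seen. The p-values measure the spread between the 3 embryos of a group, pooled over the 6 groups as if all 18 arrays were independent. Only the embryo means and the replicate block differ in this. Untreated and 1 h arrays of the same embryo shared deviations (r = 0.592 to 0.763 across genes).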

Additional observations from a re-analysis of the deposited data

How the results depend on the processing

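Over the 8 tested genes and all 12 comparisons, 1186 of 1220 alternative values kept their side of the threshold, 25 lost the call and 9 gained it. The sign turned in 50 of the 1186, all of them differences that passed neither in the reported fit nor in the alternative, and in 0 called ones. The 10 h calls of Jag1, Hes1, Hey1 and Heyl and the 1 h call of Hes1 held in both genotypes under each alternative run; the calls of Notch1, Notch2 and Notch3 did not, as given beside them. From 1 h to 10 h the calls of these 3 receptors in both genotypes, and of Jag1 and Hey1 in labelled knock-out cells, were each lost without at least 1 embryo. The cause was not tested.

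With all probe sets tested together, called probe sets numbered 134 in wild-type cells and 113 in labelled knock-out cells at 1 h (genes: 80 and 67), 7296 and 7390 at 10 h (4614 and 4745) and 7246 and 7164 at 10 h against 1 h (4556 and 4571), since more features were tested. With only the groups compared in the fit, 1 h calls were 47 and 39. With the replicate block they were 101 in labelled knock-out cells at 1 h. Between the genotypes the block was the replicate number, which ties different embryos together. It gave 1 call at 1 h and 6 at 10 h, none of them among the 8 genes. Beyond the Notch3, Hes1 and Dll1 calls given above the block changed no call of the 8 genes.

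Without 1 embryo at a time, called genes ranged from 38 to 76 in wild-type cells and 26 to 68 in labelled knock-out cells at 1 h, 3249 to 4585 and 3268 to 4894 at 10 h, 3117 to 4532 and 3037 to 4732 at 10 h against 1 h, and between the genotypes at 10 h 0 to 1. Called members ranged from 1 to 2 in wild-type cells at 1 h, where Hey1 was added without labelled knock-out embryo 2, 4 to 7 at 10 h in each genotype, and 3 to 6 in wild-type cells and 3 to 8 in labelled knock-out cells at 10 h against 1 h.

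Signals near the floor limit Dll1, Hey2 and the untreated levels of Heyl.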
